A study of Mus musculus with 21 samples.

Results

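Dorsal root ganglia of Tmem45b-flox mice under the CFA model were set against untreated ganglia of the same labelled genotype, across all genes. The comparison uses 7 of the 21 libraries of the series, chosen by their titles: 4 CFA libraries (flox_CFA 1 to 4) and 3 untreated ones whose columns are named LDRG (flox_LDRG 1 to 3). Of the 24524 genes in their count table, 16251 had enough counts to be tested. Every one of the 7 libraries is bulk poly-A RNA of whole ganglia from mice that carry the floxed Tmem45b allele, and by title none carries Mrgprd-cre. The genotype characteristic of the same labels gives Tmem45b-flox::Mrgprd-cre for every sample, so genotype rests on the titles alone. The abbreviations CFA and LDRG are not spelled out in the labels, and strain, age, sex, the site and time of treatment and the number of animals behind a library are not given there. The p-values below therefore measure the spread between libraries, which may be technical. The same table holds 4 CFA and 3 LDRG libraries titled with the Cre (cKO), and a further table holds 3 untreated flox libraries, named con/ko here after their columns, which serve as a second reference.

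Dorsal root ganglia hold the cell bodies of sensory neurons, among them the nociceptors that detect damage and irritation, together with satellite glia, Schwann cells, macrophages, connective tissue sheaths and blood vessels. Inflammation of the tissue that these neurons supply is known to change their excitability and peptide content, and can bring immune cells into the ganglion. Neutrophils carry granules of antimicrobial proteins and proteases. C/EBP transcription factors drive many granule genes, while AP-1 and CREB-type factors act on genes of injured and active neurons.

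The libraries held 69796336 to 71790252 counts in the CFA group and 70988909 to 72502294 in the LDRG group. Levels are given as CPM, read counts scaled to library size with TMM factors, and differences as log2 of CFA over LDRG. Tmem45b, the floxed gene (chr9:31426196-31464462, minus strand, mm10), had 64.5, 113, 133 and 78.2 CPM in flox_CFA 1 to 4 and 121, 129 and 142 CPM in flox_LDRG 1 to 3. Libraries flox_CFA 1, 2 and 4 thus lay below every LDRG library, and 1 and 4 lay near the untreated cKO libraries of the same table, which had 59.9 to 72.2 CPM on the scale of all 21 libraries. On that scale the CFA libraries titled with the Cre had 108, 105, 67.6 and 61.8 CPM, so that cKO_CFA 1 and 2 lay near flox_CFA 2 and above the untreated cKO libraries. The group difference was -0.43 (SE 0.22, adjusted p = 0.312), with an exact two-sided permutation p of 0.2, where 4 against 3 libraries cannot go below 0.0286. On the scale of all 21 libraries flox_CFA 1 and 4 had 65.9 and 80.2 CPM, nearer the untreated cKO than the flox_LDRG libraries. A change in level with treatment or sex and an exchange of titles cannot be told apart here. The group is therefore to be read as the CFA libraries labelled flox. Counts of the lists with 2 or more calls outside the sex-linked list are also given for flox_CFA 2 and 3 alone. Mrgprd, the receptor gene whose promoter drives the Cre of the cKO line, had 204, 158, 149 and 174 CPM against 134, 122 and 127 CPM, groups that did not overlap, with a difference of 0.42 (SE 0.10, adjusted p = 0.074). It did not pass the test.

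Sex was also divided between the groups. Xist had 283 to 390 CPM in the CFA libraries and 0.128 to 0.330 CPM in the LDRG libraries, while the mean of the Y-linked genes was 0 to 0.00709 CPM and 41.8 to 47.6 CPM. All 4 CFA libraries thus carried the RNA pattern of females and all 3 LDRG libraries that of males, so sex and treatment cannot be told apart within this table. Among the con/ko flox libraries, numbers 4 and 5 had Xist at 320.2 and 316 CPM and number 6 had it at 0. A fit of all 21 libraries with a sex score as covariate called 1312 of 16928 genes, 841 higher and 471 lower. Among list genes in the count table, 13 of 14 neutrophil, 9 of 11 red blood cell and 21 of 24 meningeal genes were higher. Lower were 7 of 24 injury and 2 of 24 neuropeptide genes. The meningeal list was assembled after the values had been seen. Within the CFA and LDRG groups sex did not vary, so the sex slope came mainly from the mixed con/ko groups. In con/ko, flox 6 and cKO 6 and 7, with Y-linked RNA, had neutrophil sums of 1535, 258 and 2986 CPM. The Xist-bearing flox 4 and 5 and cKO 4 and 5 had 244, 587, 315 and 165 CPM. S100a9 was at 6.91 in that fit and at 4.77 without the score. Whether that slope holds for the CFA and LDRG libraries was not tested, so these counts do not separate sex from treatment. On the first principal component of the 1000 most variable genes, which held 37.8% of the variance, the LDRG libraries lay at -20.2 to -15.5 and the CFA libraries at 10.3 to 17.2.

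In the CFA libraries labelled flox, 12 of 13 tested neutrophil genes and 8 of 11 red blood cell genes were higher. In the other direction, 8 of 20 nerve injury genes and 4 of 19 neuropeptide genes were lower. Meningeal genes, a list assembled after the values had been seen, were higher in 19 of 24 cases, which is a description only. The other lists and their members were chosen with earlier results of these data known. Their counts, set beside shares over all genes here and below, are likewise a description and no measure of enrichment. With edgeR's quasi-likelihood test and an adjusted p under 0.05, 436 of 16251 genes were called, 2.68% of those tested. Higher calls numbered 291 (1.79%) and lower calls 145 (0.892%), and the median log2 difference over all tested genes was -0.0022. The higher calls were the larger ones: 156 of them reached 2-fold, against 13 of the lower calls, and the median difference was 1.05 among the higher and -0.45 among the lower. In all 436 the groups did not overlap, which 3454 of all tested genes also met. Chromosome X held 18 of the calls and chromosome Y held 5, leaving 413 elsewhere. Single libraries moved these counts: 343, 137, 468 and 99 genes were called without flox_CFA 1, 2, 3 and 4, and 72, 42 and 163 without flox_LDRG 1, 2 and 3. Only 40 were called with flox_CFA 2 and 3 alone, 23 of them higher. That fit holds fewer libraries, so a smaller count of calls in it does not by itself show smaller differences.

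The second untreated reference gave another picture. Set against the con/ko flox libraries, the same 4 CFA libraries differed in 5185 of 16353 genes (31.7%), 2756 higher and 2429 lower, and many genes that were higher than in LDRG were lower than in con/ko. Those libraries were deposited in a separate table with 63508714 to 65157714 counts each. Their columns carry the codes FC, FL and ML for con/ko 4, 5 and 6, and they were not uniform. On the scale of all 21 libraries, summed spinal cord genes were at 142, 27.8 and 31.7 CPM in them. Myelinating Schwann cell genes were at 15355, 10250 and 9949 CPM. Since both comparisons use the same CFA libraries, their values are given side by side below and not compared further. Whether the LDRG or the con/ko libraries are the closer match for the CFA libraries in handling, dissection or date was not tested.

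**Figure D1:**
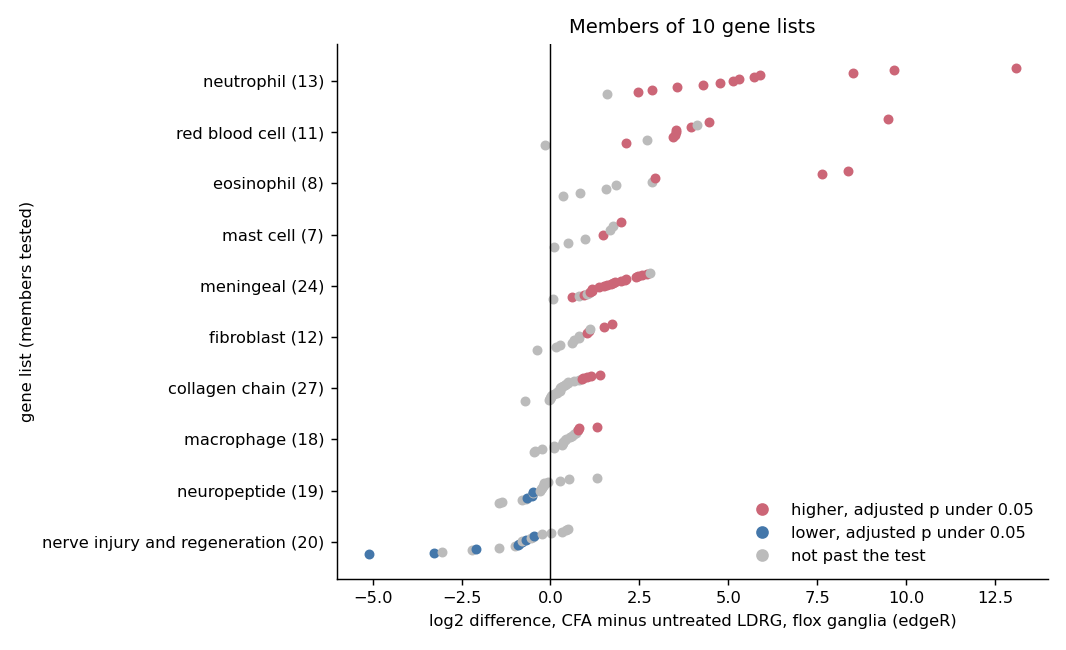
The log2 difference of CFA over untreated LDRG (horizontal axis) for each tested member of 10 gene lists (vertical axis, members tested in brackets). Red points rose and blue points fell at an adjusted p under 0.05, and grey points did not pass. Fitted values beyond about 7 belong to genes without a single count in LDRG and depend on the prior count. The neutrophil, red blood cell and meningeal lists lie to the right of 0 almost throughout, and the injury list lies mostly to the left.

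Outside chromosomes X and Y, neutrophil granule genes were among the largest rises. The windows of 4 of them are printed first because C/EBP factors are known regulators of granule genes. Each is the 180 bases before the RefSeq start, 5′ to 3′ on the gene's strand, in GRCm38.p6, and capitals mark matches to TTNNGNAA, the C/EBP type motif.

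Ltf, chr9:111019112-111019291, plus strand: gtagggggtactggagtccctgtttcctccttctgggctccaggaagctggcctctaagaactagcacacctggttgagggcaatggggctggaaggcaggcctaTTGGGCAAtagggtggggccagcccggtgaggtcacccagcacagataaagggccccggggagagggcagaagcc

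Ngp, chr9:110419628-110419807, plus strand: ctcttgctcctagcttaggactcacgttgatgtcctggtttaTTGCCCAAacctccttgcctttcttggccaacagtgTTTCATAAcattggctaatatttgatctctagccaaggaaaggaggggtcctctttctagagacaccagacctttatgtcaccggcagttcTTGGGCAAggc

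S100a9, chr3:90695722-90695901, minus strand: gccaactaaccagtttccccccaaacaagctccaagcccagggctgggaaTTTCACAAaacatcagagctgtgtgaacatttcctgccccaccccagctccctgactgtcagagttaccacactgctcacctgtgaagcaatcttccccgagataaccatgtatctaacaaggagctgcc

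Mmp8, chr9:7558249-7558428, plus strand: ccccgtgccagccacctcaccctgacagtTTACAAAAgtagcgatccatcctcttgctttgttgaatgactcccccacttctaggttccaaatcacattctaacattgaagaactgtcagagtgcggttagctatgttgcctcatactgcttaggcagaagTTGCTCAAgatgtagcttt

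Searched on both strands, the motif had 3 matches in the Ngp window, 2 in that of Mmp8 and 1 each in those of Ltf and S100a9. Among 14 windows of 13 neutrophil list genes 6 held it, and among all 32851 windows of this length 27.2% did. The match is a description of these letters and no sign of a bound factor.

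Ltf, which encodes the iron-binding lactotransferrin of secondary granules, had 19.3, 6.20, 16.4 and 19.6 CPM in flox_CFA 1 to 4 and no count in any LDRG library. With a floor of 3 counts over the LDRG group this is at least 1100-fold higher. That floor takes each count as a separate fragment. In the count table, values of 4 (4068) outnumber those of 3 (2096), so fragments may have been counted more than once. This bound, and those below for Ly6g, Cxcr2, Epx and Ear1, may then be too high. S100a9, a subunit of calprotectin, had 32.8, 12.4, 32.6 and 39.9 CPM against 1.28, 1.12 and 0.834 CPM. The CFA library with the lowest level, number 2, still lay above every LDRG library by a wide margin, and the difference was 4.77 (SE 0.43, adjusted p = 0.00529). Ngp, neutrophilic granule protein, had 28.7, 9.19, 22.1 and 29.8 CPM against 1.403, 1.44 and 0.570 CPM, a difference of 4.30 (SE 0.51, adjusted p = 0.0114). Mmp8, the neutrophil collagenase, had 5.64, 1.93, 4.23 and 6.10 CPM against 0.111, 0.0700 and 0.153 CPM, and its difference was 5.31 (SE 0.51, adjusted p = 0.0067). Mmp9, a gelatinase, had 7.21, 3.88, 5.07 and 8.24 CPM against 0.528, 0.462 and 0.570 CPM, a difference of 3.55 (SE 0.30, adjusted p = 0.00393). In each of these genes flox_CFA 2 was the lowest of the CFA libraries and no CFA library overlapped LDRG. These calls held in all 7 fits that left out 1 library, apart from Ngp in 6 of 7.

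Of 13 tested genes of the neutrophil list, 12 rose and none fell, against 1.79% higher calls over all genes. Their median difference was 5.14, unchanged with the 3 genes at 0 in LDRG set to their bounds. Those 3 are Ltf, Ly6g, a surface antigen of granulocytes that was at least 46.1-fold higher, and Cxcr2, a chemokine receptor that was at least 102-fold higher. Retnlg, Camp, which encodes cathelicidin, and S100a8, the other calprotectin subunit, rose by 5.90 (SE 0.98), 5.14 (SE 1.07) and 5.71 (SE 1.12). Their LDRG levels were near the floor: 0.250, 0 and 0 CPM, 0.319, 0 and 0 CPM, and 0, 0.938 and 0 CPM. The list median is the value of Camp itself. Lcn2, which binds bacterial siderophores, and Csf3r, the receptor of granulocyte colony-stimulating factor, rose by 2.85 and 2.45. Mpo, the myeloperoxidase of primary granules, was the member that did not pass, at 1.60 (SE 0.47, adjusted p = 0.108). The counts higher were 10, 10, 10 and 7 without flox_CFA 1, 2, 3 and 4, and 8, 6 and 8 without flox_LDRG 1, 2 and 3. With flox_CFA 2 and 3 alone, 3 passed. S100a8 was called in 1 of the 7 fits that left out a library.

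Summed over all genes of the list that the table holds, tested or not, the level was 140.3, 51.9, 124 and 159 CPM in the CFA libraries and 5.81, 6.08 and 4.001 CPM in LDRG, on the scale of all 21 libraries, as for every list sum below. In con/ko libraries 4, 5 and 6 it was 244, 587 and 1535 CPM, above every CFA library. Against that reference 0 of 14 members were higher and 13 were lower, with a median of -2.39, where 31.7% of all genes were called. In bulk tissue, fewer cells of a type and less RNA per cell cannot be told apart. For S100a9 the con/ko libraries had 57.5, 120.0 and 317 CPM, and the difference from them was -2.43 (adjusted p = 0.0166).

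**Figure D2:**
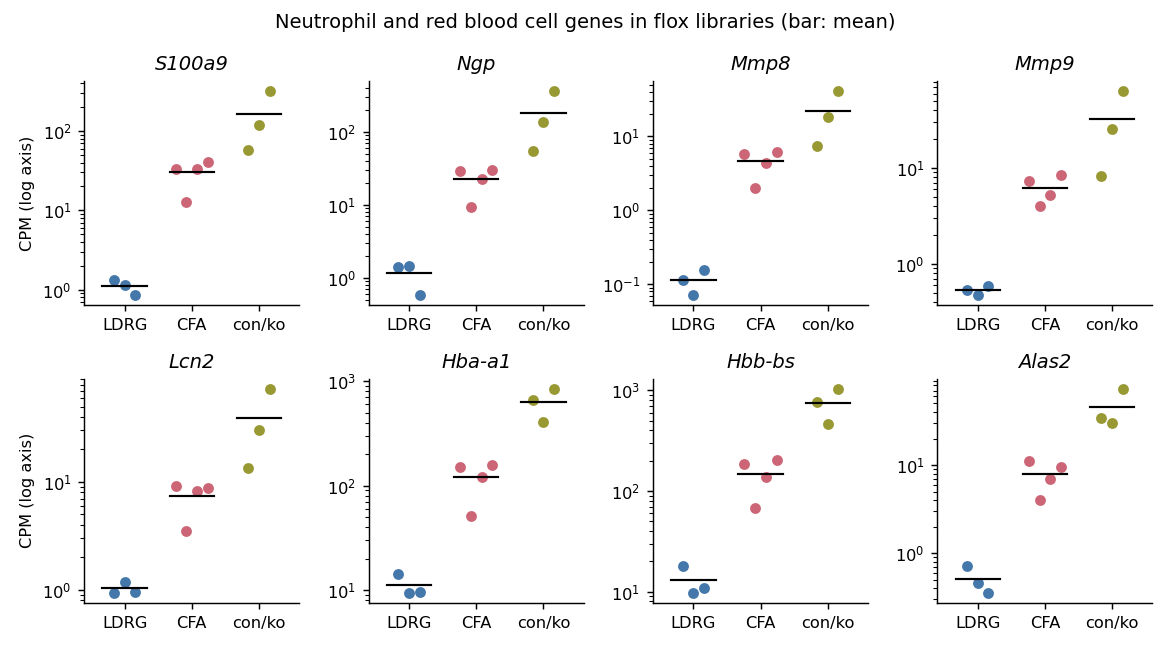
CPM on a log axis of 5 neutrophil genes and 3 red blood cell genes in each flox library, on the scale of all 21 libraries, with the mean as a bar. The 4 CFA points lie above the 3 LDRG points in every panel and below the con/ko points in most, and the CFA point that stands lowest in each panel is flox_CFA 2.

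Red blood cell genes rose with the neutrophil genes. Hba-a1, an alpha globin, had 147, 49.5, 118 and 155 CPM against 13.99, 9.19 and 9.34 CPM, a difference of 3.44 (SE 0.40, adjusted p = 0.0114). Hbb-bs, a beta globin, had 183, 66.4, 133 and 196 CPM against 17.6, 9.50 and 10.7 CPM, a difference of 3.52 (SE 0.41, adjusted p = 0.0114). As in the neutrophil list, flox_CFA 2 was the lowest CFA library and the groups did not overlap. Hba-a2 and Hbb-bt rose by 3.51 and 3.53, but Hba-a1 and Hba-a2, like Hbb-bs and Hbb-bt, are near-identical copies between which reads may be split. Alas2, the X-linked first enzyme of heme synthesis in erythroid cells, had 11.02, 3.89, 6.88 and 9.21 CPM against 0.708, 0.448 and 0.347 CPM, a difference of 3.95 (SE 0.42, adjusted p = 0.00909). Slc4a1, the band 3 anion exchanger, rose by 4.45.

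In all, 8 of 11 tested red blood cell genes rose and none fell, against 1.79% higher calls over all genes, with a median difference of 3.52 that did not move with the 1 member at 0 in LDRG set to its bound. Epb42 (2.71) and Rhag (4.11) were among the 3 that did not pass. The counts higher were 7, 8, 7 and 6 without flox_CFA 1, 2, 3 and 4, and 5, 0 and 6 without flox_LDRG 1, 2 and 3. The summed level of flox_LDRG 2, 50.1 CPM, was close to that of flox_LDRG 3, 51.5 CPM. Why the count fell to 0 without flox_LDRG 2 was not tested. With flox_CFA 2 and 3 alone, 2 passed, while Hbb-bs was at 2.99 (adjusted p = 0.05004) and Hba-a1 at 2.95 (adjusted p = 0.0583). Summed levels were 604, 223, 475 and 645 CPM in CFA, 69.7, 50.1 and 51.5 CPM in LDRG and 2605, 1678 and 3584 CPM in con/ko. Against con/ko 0 members were higher and 11 were lower, with a median of -2.51, where 31.7% of all genes were called.

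Genes of the meninges, the sheaths that continue over the ganglion from the spinal cord, gave more higher calls than any other list. This list of 24 genes was assembled after the values had been seen, so its count is a description. Ptgds, which makes prostaglandin D2 and is abundant in arachnoid cells, had 209, 106, 155 and 164 CPM against 39.7, 16.8 and 23.5 CPM, a difference of 2.57 (SE 0.33, adjusted p = 0.0149). The lowest CFA library was more than 2-fold above the highest LDRG library. Foxd1, a forkhead transcription factor, had 7.64, 6.02, 5.37 and 5.85 CPM against 1.07, 1.04 and 1.43 CPM, a difference of 2.40 (SE 0.19, adjusted p = 0.00257). Zic1, a zinc finger transcription factor of meningeal cells, had 20.7, 13.98, 13.9 and 15.9 CPM against 6.001, 4.23 and 5.96 CPM, a difference of 1.58 (SE 0.19, adjusted p = 0.0117). Cldn11, a tight junction claudin, had 18.6, 12.05, 10.7 and 15.1 CPM against 4.63, 3.92 and 4.46 CPM, a difference of 1.70 (SE 0.20, adjusted p = 0.0114). The calls of Foxd1 and Zic1 held in all 7 fits without 1 library, and those of Ptgds and Cldn11 in 6 of 7.

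Of the 24 genes, 19 rose and none fell, with a median of 1.55. Over all genes 1.79% rose, but the list was assembled with the values known, so its share is no measure of enrichment. The transporters Slc6a20a, Slc6a13, Slc22a8 and Slc47a1 rose by 2.12, 1.51, 2.10 and 1.97. Aldh1a2, which makes retinoic acid, and Osr1, a transcription factor of connective tissue, rose by 2.45 and 2.71. The transcription factors Foxc2, Zic4 and Zic2 rose by 1.75, 1.83 and 1.16. Slc22a6 (2.81), Gjb2 (1.08), Dpp4 (1.03), Tbx18 (0.80) and Cdh1 (0.084) did not pass. Counts higher were 17, 13, 17 and 9 without flox_CFA 1, 2, 3 and 4, and 6, 5 and 11 without flox_LDRG 1, 2 and 3, and 2 with flox_CFA 2 and 3 alone. The summed level was 646, 468, 527 and 555 CPM in CFA, 302, 276 and 308 CPM in LDRG and 769, 883 and 818 CPM in con/ko. Against con/ko 0 members were higher and 13 lower, where 31.7% of all genes were called. Foxd1 differed by -0.15 and Zic1 by -0.073 there, neither past the test.

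Among fibroblast genes, 4 of 12 rose and none fell, against 1.79% of all genes, with a median of 0.80. Dcn, the collagen-binding proteoglycan decorin, had 763, 549, 450.0 and 505 CPM against 274, 257 and 300.0 CPM, a difference of 1.03 (SE 0.17, adjusted p = 0.0266). Fn1, fibronectin, had 86.1, 52.7, 48.96 and 49.8 CPM against 20.4, 15.4 and 26.7 CPM, a difference of 1.51 (SE 0.25, adjusted p = 0.0289). Library flox_CFA 1 was the highest for both, and the groups did not overlap. Pdgfra, a growth factor receptor of fibroblasts, and Pi16, a marker of adventitial fibroblasts, rose by 1.09 and 1.73. Col1a1 (0.65), Col3a1 (0.80) and Clec3b (1.11) did not pass. The counts higher were 4, 1, 4 and 0 without flox_CFA 1, 2, 3 and 4, and 0, 0 and 2 without flox_LDRG 1, 2 and 3, and 0 with flox_CFA 2 and 3 alone. Summed levels were 1633, 1278, 1142 and 1129.8 CPM in CFA, 656, 780.3 and 895 CPM in LDRG and 2757, 1816 and 2543 CPM in con/ko. Against con/ko 0 of 12 were higher and 8 lower, where 31.7% of all genes were called.

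Of 27 collagen chain genes 5 rose and none fell, against 1.79% of all genes, with a median of 0.27. Col12a1, a fibril-associated collagen, had 49.9, 35.7, 26.9 and 34.9 CPM against 13.9, 13.04 and 14.8 CPM, a difference of 1.404 (SE 0.19, adjusted p = 0.0174). Col8a2, Col8a1, Col6a1 and Col6a2, chains of network and beaded-filament collagens, rose by 1.13, 0.91, 1.01 and 0.89. The counts higher were 3, 1, 5 and 1 without flox_CFA 1, 2, 3 and 4, and 0, 0 and 3 without flox_LDRG 1, 2 and 3, and 1 with flox_CFA 2 and 3 alone. Against con/ko 0 chains were higher and 15 were lower, where 31.7% of all genes were called. Apod, a lipid-binding lipocalin of fibroblasts and glia, had 1219.6, 1119, 1029.5 and 1017 CPM against 607, 550.4 and 655 CPM, a difference of 0.86 (SE 0.088, adjusted p = 0.00796), and its call held in all 7 fits without 1 library. Thbs1, the matricellular thrombospondin 1, had 30.8, 21.4, 16.5 and 28.999 CPM against 5.21, 3.72 and 6.24 CPM, a difference of 2.27 (SE 0.26, adjusted p = 0.0114) that held in all 7. H19, an imprinted noncoding RNA, had 29.8, 13.5, 9.44 and 18.3 CPM against 1.97, 1.97 and 5.09 CPM, a difference of 2.56 (SE 0.49, adjusted p = 0.04) that held in 2 of 7.

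Of 18 tested macrophage genes 3 rose and none fell, against 1.79% of all genes, and the median was 0.42. Itgam, the CD11b integrin that neutrophils also carry, had 7.54, 4.01, 5.24 and 5.01 CPM against 2.08, 2.14 and 2.35 CPM, a difference of 1.31 (SE 0.21, adjusted p = 0.0266). Cx3cr1, a chemokine receptor of resident macrophages, had 9.53, 7.30, 7.33 and 7.29 CPM against 4.86, 4.63 and 4.18 CPM, a difference of 0.79 (SE 0.13, adjusted p = 0.0297). Csf1r, the receptor that macrophages need to survive, had 27.7, 23.6, 21.2 and 19.7 CPM against 11.9, 12.1 and 16.01 CPM, a difference of 0.79 (SE 0.15, adjusted p = 0.0398). The groups were separate in all 3 genes, with flox_CFA 1 the highest library throughout. Adgre1, which encodes F4/80, was at 0.74 (SE 0.16, adjusted p = 0.0548), and the complement genes C1qa, C1qb and C1qc were at 0.33, 0.11 and 0.35 without a call. The counts higher were 2, 1, 3 and 0 without flox_CFA 1, 2, 3 and 4, and 0, 0 and 2 without flox_LDRG 1, 2 and 3, and 0 with flox_CFA 2 and 3 alone. Summed levels were 188, 151, 161 and 154 CPM in CFA, 114, 120.0 and 119.6 CPM in LDRG and 199.9, 244 and 379 CPM in con/ko. Against con/ko 0 of 18 members were higher and 9 lower, where 31.7% of all genes were called.

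Of 8 eosinophil genes, a list assembled after the values had been seen, 3 rose. Over all genes 1.79% rose, but with the list so assembled its share is a description and no measure of enrichment. Epx, eosinophil peroxidase, and Ear1, an eosinophil ribonuclease with near-identical family members, had no count in LDRG. Both passed the count filter through the CFA libraries alone. By the floor used for Ltf they were at least 25.1-fold and 41.8-fold higher. Prg2, the major basic protein, had 1.37, 1.04, 1.87 and 2.65 CPM against 0.292, 0.238 and 0.139 CPM, a difference of 2.95 (SE 0.42, adjusted p = 0.0197). These are low levels, and none of the 3 reached 3 CPM in any of the 7 libraries. The eosinophil counts higher were 2, 3, 3 and 1 without flox_CFA 1, 2, 3 and 4, and 1, 0 and 1 without flox_LDRG 1, 2 and 3, and 0 with flox_CFA 2 and 3 alone. Of 7 mast cell genes 2 rose: Tpsb2, a tryptase, by 1.99 (SE 0.39, adjusted p = 0.0412) and Mcpt4, a chymase, by 1.47 (SE 0.30, adjusted p = 0.0454). Their call held in 2 and 1 of 7 fits without 1 library, and with flox_CFA 2 and 3 alone 0 mast cell genes passed. Of 9 B and plasma cell genes, Igkc, the kappa light chain constant region, rose by 4.58 (SE 0.71, adjusted p = 0.0246), a call kept in 3 of 7. None of 14 T and NK cell genes was called, with a median of -0.095 and summed levels of 6.79, 4.76, 5.94 and 7.06 CPM in CFA against 7.09, 7.41 and 4.66 CPM in LDRG.

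**Figure D3:**
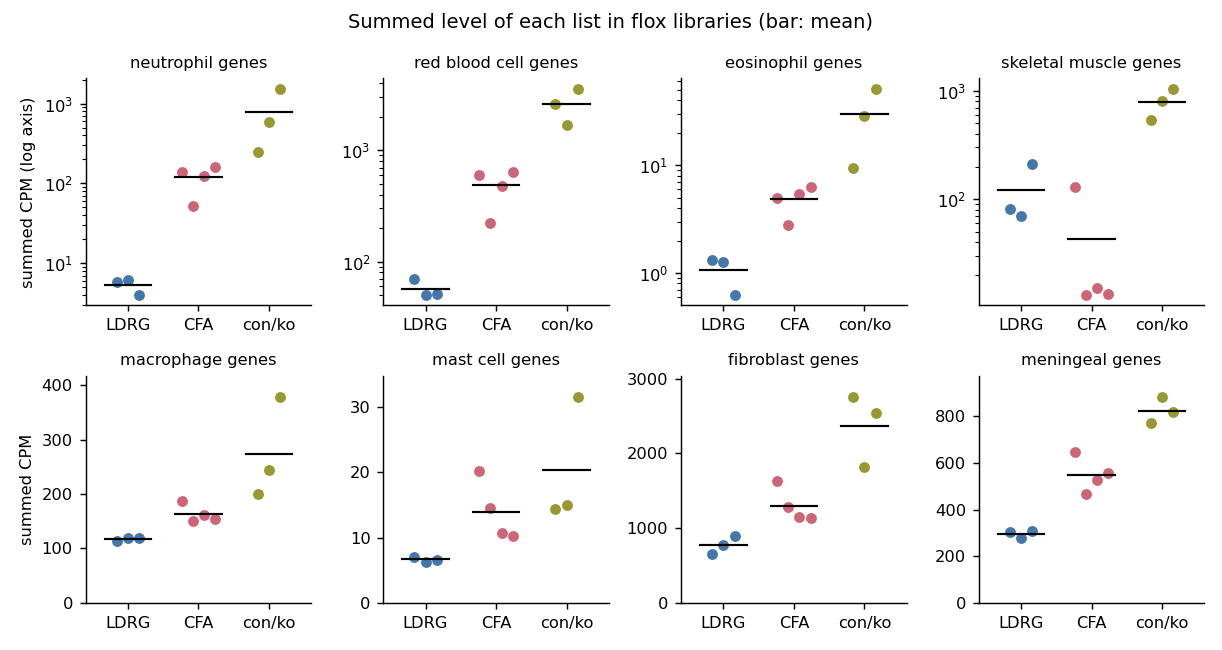
Summed CPM of 8 gene lists in each flox library on the scale of all 21 libraries, with the mean as a bar, on log axes in the upper row and linear axes from 0 in the lower row. The CFA libraries lie between LDRG and con/ko for neutrophil, red blood cell, eosinophil and meningeal genes, and skeletal muscle genes are low in 3 of 4 CFA libraries.

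Complement genes gave 2 rises among 16 (median 0.28), where over all genes 1.79% rose and 0.892% fell. C2, a component of the classical pathway, had 17.4, 11.9, 11.7 and 9.77 CPM against 7.35, 6.84 and 5.67 CPM, a difference of 0.94 (SE 0.20, adjusted p = 0.0498). Of 16 tested prostaglandin pathway genes, Ptgds rose, as given above, and so did Ptger2, an E prostanoid receptor gene, by 0.74 (SE 0.15, adjusted p = 0.0454). Ptgir, the prostacyclin receptor of nociceptors, fell. Ptgir had 71.9, 81.5, 74.04 and 82.1 CPM against 114, 113 and 89.4 CPM, a difference of -0.45 (SE 0.094, adjusted p = 0.0485). These calls were fragile: C2, Ptger2 and Ptgir stayed called in 1, 0 and 1 of 7 fits without 1 library, and with flox_CFA 2 and 3 alone no gene of either list was called. Of 21 cytokine and chemokine genes none rose and 1 fell, namely Csf1, the ligand of Csf1r, at -0.46 (SE 0.082, adjusted p = 0.0339) and with 2 of 7 fits. None of 27 cytokine receptor genes and none of 16 NF-kappaB pathway genes was called.

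Of 20 tested genes that sensory neurons switch on after nerve injury, 8 were lower in the CFA libraries labelled flox. Windows of 2 of them, and of 2 neuropeptide genes described further on, are printed for their AP-1 and cAMP response element letters. Capitals mark TGANTCA, the AP-1 type motif, in Sprr1a and TGACG, the cAMP response element half-site, in the others, where CGTCA is the same motif on the opposite strand. Build, window length and orientation are as above, and Adcyap1 is shown at the first of 2 listed starts.

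Sprr1a, chr3:92485882-92486061, minus strand: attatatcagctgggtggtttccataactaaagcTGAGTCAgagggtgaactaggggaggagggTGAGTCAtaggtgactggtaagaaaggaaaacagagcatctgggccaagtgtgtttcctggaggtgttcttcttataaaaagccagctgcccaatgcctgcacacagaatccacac

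Atf3, chr1:191183334-191183513, minus strand: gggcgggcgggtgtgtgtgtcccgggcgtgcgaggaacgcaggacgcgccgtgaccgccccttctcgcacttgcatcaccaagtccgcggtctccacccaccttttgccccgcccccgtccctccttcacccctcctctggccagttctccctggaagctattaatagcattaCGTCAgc

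Adcyap1, chr17:93198837-93199016, plus strand: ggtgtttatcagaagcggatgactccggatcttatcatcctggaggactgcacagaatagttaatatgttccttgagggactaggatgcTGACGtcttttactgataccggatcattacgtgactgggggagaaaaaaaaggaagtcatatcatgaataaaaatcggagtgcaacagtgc

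Calca, chr7:114636358-114636537, minus strand: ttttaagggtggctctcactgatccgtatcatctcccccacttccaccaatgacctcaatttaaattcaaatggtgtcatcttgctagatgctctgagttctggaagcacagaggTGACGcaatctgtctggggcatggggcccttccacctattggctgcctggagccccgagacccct

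The AP-1 type motif, which reads the same on both strands up to its middle base, had 2 matches in the Sprr1a window. That was the only 1 of 19 windows of 17 injury list genes with a match, against 4.97% of all 32851 windows. The half-site was in 13 of 28 windows of 20 neuropeptide list genes and in 14.8% of all windows. Nothing on binding follows from these letters.

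Atf3, a stress-induced transcription factor, had 7.65, 6.79, 8.22 and 6.13 CPM in flox_CFA 1 to 4 and 16.5, 27.9 and 48.3 CPM in flox_LDRG 1 to 3, a difference of -2.10 (SE 0.31, adjusted p = 0.022). The CFA libraries were close together, and the LDRG libraries were spread, with flox_LDRG 3 the highest. Sox11, a transcription factor of axon growth, had 14.1, 12.4, 14.4 and 13.01 CPM against 20.7, 26.9 and 28.2 CPM, a difference of -0.90 (SE 0.12, adjusted p = 0.0149). Jun, a subunit of AP-1, had 66.1, 81.4, 85.8 and 79.6 CPM against 113, 132 and 136 CPM, a difference of -0.70 (SE 0.10, adjusted p = 0.019). Ecel1, an endopeptidase-like protein of injured neurons, had 0.627, 0.700, 0.804 and 0.588 CPM against 3.69, 4.23 and 11.995 CPM, a difference of -3.28 (SE 0.42, adjusted p = 0.0146). Sprr1a, a small proline-rich protein induced in regenerating axons, had 0.0570, 0.210, 0.790 and 0.0861 CPM against 2.90, 3.61 and 23.3 CPM, a difference of -5.10 (SE 1.02, adjusted p = 0.0433). The groups did not overlap in any of them, and flox_LDRG 3 was the highest library of all 7 for each.

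These 8 fell and no injury gene rose, with a median of -0.80, against 0.892% lower calls over all genes. Gap43, a growth cone protein, Stmn4, a microtubule-binding stathmin, and Sema6a, an axon guidance molecule, fell by 0.46, 0.88 and 0.81 on the log2 scale. Gal (-0.80), Nts (-1.45), Gpr151 (-2.21), Cckbr (-3.05) and Gadd45a (-0.55) did not pass, nor did Cacna2d1 (0.020). The counts lower were 5, 3, 8 and 2 without flox_CFA 1, 2, 3 and 4, and 6, 1 and 3 without flox_LDRG 1, 2 and 3. With flox_CFA 2 and 3 alone the count was 0. In that fit Atf3, Sox11, Jun and Ecel1 were at -2.04, -0.91, -0.60 and -3.14. Stmn4 and Sema6a were at -0.83 and -0.82 in it. Against con/ko, 3 of 20 members were higher and 1 lower, with a median of -0.011. Over all 16353 genes 2756 were higher and 2429 lower there, so these counts do not set the list apart. Atf3 there differed by 0.085 and Jun by -0.017, so the fall of these genes is relative to LDRG. Of 23 immediate early genes 2 fell, Atf3 and Jun, and none rose, with 0 called with flox_CFA 2 and 3 alone. Among 13 ERK feedback genes, Etv5, an ETS factor, had 85.02, 115, 107 and 115 CPM against 173, 148 and 142 CPM and fell by 0.55 (adjusted p = 0.0477), a call kept in 1 of 7 fits.

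Among neuropeptide genes 4 fell. Adcyap1, which encodes PACAP, had 93.7, 96.7, 100.2 and 93.1 CPM against 141, 142 and 133 CPM, a difference of -0.53 (SE 0.048, adjusted p = 0.00529), and held in all 7 fits without 1 library. Calca, which encodes CGRP, had 880.1, 1165, 1169.5 and 1098 CPM against 1595, 1658 and 1423 CPM, a difference of -0.53 (SE 0.11, adjusted p = 0.0447). Tac1, the precursor of substance P, had 209.8, 245, 280.3 and 238 CPM against 341, 357 and 322 CPM, a difference of -0.48 (SE 0.092, adjusted p = 0.0398). Bdnf, a neurotrophin released by nociceptors, had 43.8, 53.4, 51.9 and 52.9 CPM against 91.7, 82.8 and 67.1 CPM, a difference of -0.67 (SE 0.11, adjusted p = 0.0281). Library flox_CFA 1 was the lowest for Calca, Tac1 and Bdnf, and the groups were separate in all 4 genes. The calls of Calca, Tac1 and Bdnf held in 1, 2 and 3 of 7 fits.

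Of 19 tested neuropeptide genes these 4 fell and none rose, against 0.892% lower calls over all genes, with a median of -0.29. Vgf (-0.69), Scg2 (-0.29) and Chga (-0.28), secreted proteins of dense-core vesicles, did not pass. The counts lower were 5, 1, 4 and 1 without flox_CFA 1, 2, 3 and 4, and 1, 1 and 2 without flox_LDRG 1, 2 and 3, and 1 with flox_CFA 2 and 3 alone. Summed levels were 2250.0, 2791, 2801 and 2668 CPM in CFA, 3648, 3662 and 3355 CPM in LDRG and 2091, 2369.6 and 2371 CPM in con/ko. Against con/ko 2 of 19 were higher, among them Bdnf by 0.73, and 2 lower, where 31.7% of all genes were called. Among 14 peptidergic nociceptor genes, 3 of which are in the list above, 4 fell and none rose. The fourth is Smr2, with 7.54, 8.66, 9.91 and 8.90 CPM against 14.8, 16.3 and 18.7 CPM, a difference of -0.93 (SE 0.12, adjusted p = 0.0149), and against con/ko it was at 1.43. The counts lower for that list were 4, 2, 3 and 2 without flox_CFA 1, 2, 3 and 4, and 2, 1 and 2 without flox_LDRG 1, 2 and 3, and 1 with flox_CFA 2 and 3 alone.

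Of 14 pan-neuronal genes 1 fell and none rose, where 0.892% of all genes fell. Their summed level was 19892, 22439.8, 21779 and 22118 CPM in CFA and 25742, 25152 and 24298 CPM in LDRG, groups that did not overlap, and 16945, 18306 and 16677 CPM in con/ko. The median difference was -0.17, 12 members lay below 0, and the gene that fell was Nefm, a neurofilament subunit, with 3360.5, 3995, 3604 and 3676 CPM against 5359, 5108 and 5159 CPM, a difference of -0.51 (SE 0.078, adjusted p = 0.024), kept in 3 of 7 fits. The part that the lower summed level plays in the falls of injury and neuropeptide genes was not tested.

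**Figure D4:**
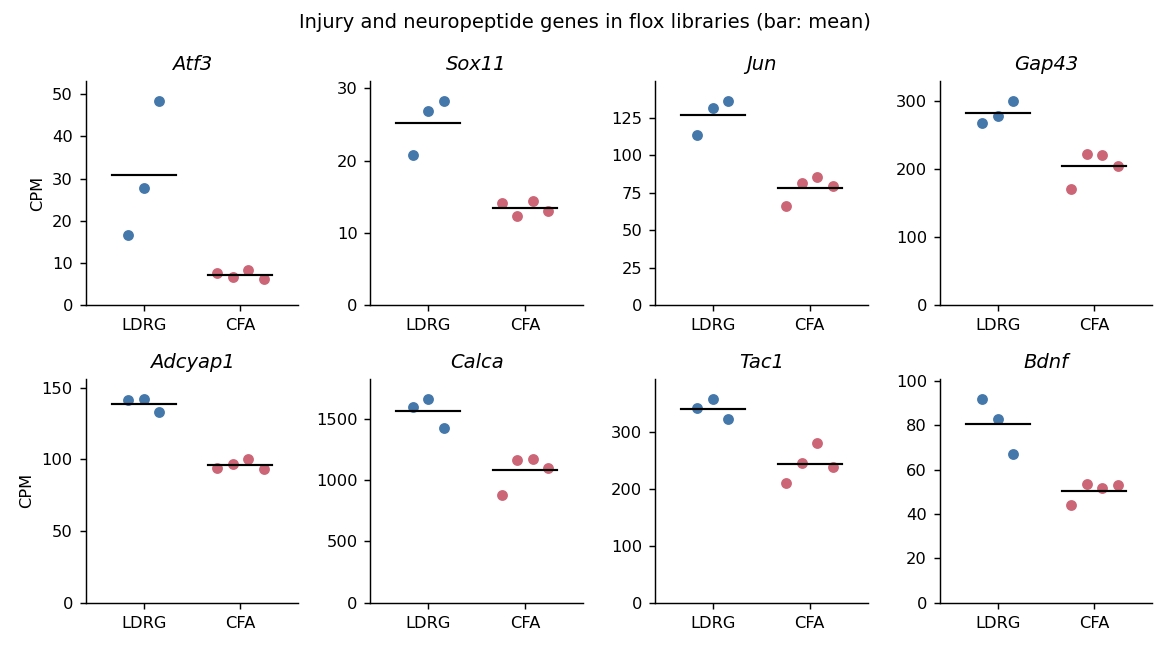
CPM from 0 on linear axes of 4 injury genes (upper row) and 4 neuropeptide genes (lower row) in the 3 LDRG and 4 CFA flox libraries, with the mean as a bar. The CFA points lie below the LDRG points in each panel, and the LDRG points of Atf3 are the most widely spread.

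Other falls outside those lists were modest in size. Nptx2, a neuronal pentraxin that clusters glutamate receptors, had 64.2, 79.02, 87.1 and 80.4 CPM against 135, 128 and 117 CPM, a difference of -0.70 (SE 0.10, adjusted p = 0.0197). Tmem100, a membrane adaptor that modulates TRPA1 in nociceptors, had 39.02, 50.6, 37.5 and 44.9 CPM against 78.1, 80.5 and 61.9 CPM, a difference of -0.77 (SE 0.13, adjusted p = 0.0266). Net1, a guanine nucleotide exchange factor, and Phlda1, a growth-factor-induced protein, fell by 0.77 and 0.83. Tifa, an adaptor of TRAF proteins, had 25.1, 25.3, 26.1 and 23.6 CPM against 39.4, 43.7 and 38.1 CPM, a difference of -0.69 (SE 0.072, adjusted p = 0.00797). Nucks1, a nuclear DNA-binding protein, and Celf4, an RNA-binding protein of neurons, were at -0.43 (SE 0.045, adjusted p = 0.00796) and -0.40 (SE 0.054, adjusted p = 0.0183). Tmem176a and Lix1 fell by 0.47 and 0.49, and Slc41a2, a magnesium transporter, by 0.34. Serpina3i, Smim3 and Naf1 completed the 12 largest falls at -0.86, -0.78 and -0.73. The calls of Tifa, Nucks1 and Tmem176a held in all 7 fits without 1 library, and those of Nptx2 and Celf4 in 4 and 4.

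Cpeb4, an RNA-binding protein that controls polyadenylation and translation, stood apart among the rises. It had 173, 36.8, 132 and 154 CPM in flox_CFA 1 to 4 and 28.8, 23.4 and 25.8 CPM in LDRG, a difference of 2.25 (SE 0.46, adjusted p = 0.0454). Library flox_CFA 2 was close to LDRG and the other 3 were far above it, and the call held in 1 of 7 fits. Against con/ko, at 18.7, 29.6 and 30.99 CPM, the difference had the same sign, 2.29 (adjusted p = 0.0116), and in cKO it was 2.22 without a call.

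Lists of receptors and channels held at most 1 call each, where 2.68% of all genes were called in either direction. Oprd1, the delta opioid receptor, had 23.5, 23.2, 18.3 and 21.6 CPM against 13.5, 11.95 and 11.8 CPM, a difference of 0.80 (SE 0.11, adjusted p = 0.0172) that held in 6 of 7 fits, and against con/ko it was 0.74. It was the 1 call among 11 opioid, cannabinoid and GABA-B receptor genes. Gabrb2, a GABA-A receptor subunit and the 1 call of 12, had 16.2, 11.5, 10.2 and 12.6 CPM against 7.70, 4.66 and 6.32 CPM, a difference of 1.02 (SE 0.21, adjusted p = 0.0453). Kcna2, a voltage-gated potassium channel subunit and the 1 call of 28, had 685, 705, 600.3 and 668 CPM against 541, 487 and 513 CPM, a difference of 0.37 (SE 0.070, adjusted p = 0.0387). Kcnk3, an acid-sensitive leak channel and the 1 call of 12 two-pore channels, fell by 0.44 (adjusted p = 0.0339). Among 27 itch receptor and signalling genes, S1pr3, a sphingosine 1-phosphate receptor of pruriceptors, had 152, 168, 165 and 159 CPM against 214, 199 and 215 CPM and fell by 0.38 (adjusted p = 0.0183), while 26 were not called. Gabrb2, Kcna2, Kcnk3 and S1pr3 stayed called in 1, 1, 2 and 3 of 7 fits without 1 library. No call was made among 17 voltage-gated sodium channel genes (median 0.14), 18 TRP and Piezo channel genes (0.083), 13 P2X and acid-sensing channel genes (-0.037) or 16 voltage-gated calcium channel genes (0.039).

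Markers of other neuron classes were not called: 12 genes of Mrgprd-type nonpeptidergic neurons had a median of 0.12, with 11 above 0, 7 of somatostatin-type itch neurons 0.16, 6 of C-low-threshold mechanoreceptors -0.070 and 14 of large A-fibre neurons 0.0084. Of 12 satellite glial genes 1 fell, Glul, the glutamine synthetase, with 267, 279.9, 308 and 284 CPM against 351, 378 and 382 CPM, a difference of -0.38 (SE 0.061, adjusted p = 0.0253) kept in 2 of 7 fits. The 15 myelinating Schwann cell genes had no call and a median of -0.18. Endothelial genes (12) and pericyte genes (12) had none either, where 2.68% of all genes were called.

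The title of the series names endoplasmic reticulum calcium regulation. Of 34 tested genes that handle calcium there, such as the pumps, release channels and store sensors, none was called in this comparison, and the median was -0.036 with 14 above 0. None of 25 unfolded protein response genes or 23 heat shock chaperone genes was called. Interferon response genes lay lower without a call: the median of 28 was -0.71, with 2 above 0. Their summed level was 683, 786, 784 and 979.7 CPM in CFA and 1284, 1456 and 926 CPM in LDRG, ranges that overlapped through flox_LDRG 3. The 15 MHC class I genes, targets of interferon, had a median of -0.49, and the 8 MHC class II genes one of 0.19. Of the glucocorticoid response and metallothionein list, Mt1, a metallothionein, rose by 0.47 beside Lcn2, and Tsc22d3, an X-linked glucocorticoid target, fell by 0.32, out of 20, and with flox_CFA 2 and 3 alone none of that list was called. Top2a, a topoisomerase of dividing cells, rose by 0.62 out of 20 cell cycle genes, and Insig1, a regulator of cholesterol synthesis, fell by 0.22 out of 24. Mt1, Tsc22d3, Top2a and Insig1 stayed called in 1, 1, 0 and 1 of 7 fits. Over all genes 2.68% were called in the main fit.

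Markers of tissue that surrounds a ganglion were read beside these results. The summed level of 14 skeletal muscle genes was 129, 13.1, 15.2 and 13.4 CPM in CFA, 81.7, 70.3 and 211 CPM in LDRG and 537, 799.9 and 1046 CPM in con/ko, with no call and a median of -1.68. Of 13 spinal cord genes 7 had enough counts to be tested, with no call, and Olig2 and Slc32a1 were at 0 in both groups. The sums over the 13 were 37.1, 33.04, 30.8 and 29.6 CPM in CFA and 35.4, 33.4 and 32.9 CPM in LDRG. In con/ko 4, 5 and 6 they were 142, 27.8 and 31.7 CPM. The parts that blood, sheath and muscle RNA play in the calls above were not tested. Of the 58 lists with tested members, 29 had a call and 29, with 493 members, had none.

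The CFA and LDRG libraries titled with the Cre gave the same comparison in separate libraries, with the same division by sex. Tmem45b in flox_CFA 1 and 4 lay nearer the cKO LDRG libraries, and in cKO_CFA 1 and 2 nearer the flox LDRG libraries. The overlap and the test of the difference below therefore compare libraries as titled, and whether titles were exchanged was not tested. In the cKO comparison 325 of 16199 genes were called (2.01%), 228 higher and 97 lower. Of the genes higher in flox and tested there, 118 were also called higher in cKO, which is 41.3% of the flox calls tested and 51.8% of the cKO calls. Of the lower calls 34 were shared, 23.4% and 35.1% of the lists. No gene was called in opposite directions. In cKO 9 of 14 neutrophil genes, 6 red blood cell genes, 8 fibroblast genes and 9 meningeal genes were higher, and 1 injury gene (Sema6a, -0.63) was lower. S100a9 differed by 4.06 in cKO, Hba-a1 by 2.80, Ptgds by 1.16, Atf3 by -0.73, Adcyap1 by -0.24 and Oprd1 by 0.32.

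The difference between the flox and the cKO response was tested for every gene as an interaction in 1 fit of the 14 libraries. It was called for 0 of 16605 genes (0%) with edgeR, where the smallest adjusted p was 0.637 and 840 genes had an unadjusted p under 0.05. DESeq2 called 25, and the edgeR fits without 1 library called 0 or 1. Genes past the threshold in flox and not in cKO, such as Atf3 and Oprd1, are therefore not shown to respond differently.

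**Figure D5:**
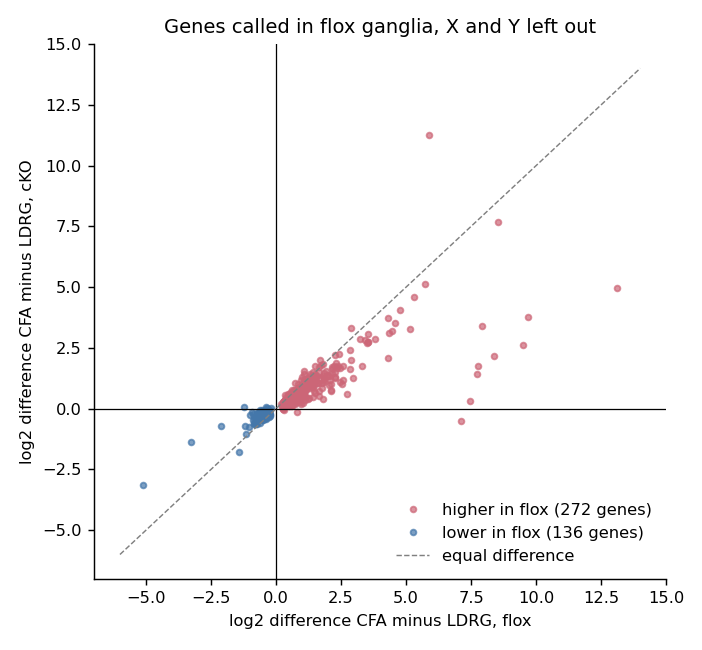
The log2 difference of CFA over LDRG in flox (horizontal axis) and in cKO (vertical axis) for the 272 higher and 136 lower genes called in flox outside chromosomes X and Y and tested in both. Nearly all points lie in the quadrants of equal sign. The points were chosen by their flox difference, so their distance from the dashed line of equal difference is not read, and values beyond about 7 belong to genes without counts in one group.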

How the data were processed

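Per the labels' protocols, poly-A RNA of whole mouse ganglia was sequenced from both fragment ends, 150 bases each. The authors deposited raw read counts per gene. Reads were processed with fastp 0.23.2, BWA 2.2.1, SAMtools 1.14 and DESeq2 1.40.2 on mm10, per the submitters' processing notes. Not given in the sources used here are the way reads were counted and any use of strand, so overlapping genes on opposite strands cannot be told apart.

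Groups came from titles. Genes were filtered (filterByExpr, minimum count 10, total 15), scaled by TMM and tested with edgeR 4.0.16's quasi-likelihood F test in R 4.3.3 (limma 3.58.1), with Benjamini-Hochberg adjustment and a threshold of 0.05. The fit held only the 7 libraries. Standard errors are the absolute log2 difference over the root of F. The method was tested on simulated data. Alternatives were DESeq2 1.42.0, other scaling and filters, a replicate block, single libraries left out, other library sets, con/ko as reference and a sex score.

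Named genes were Tmem45b and Mrgprd. Added were, among calls of at least 10 CPM outside X and Y with separate groups, the 12 largest rises and falls and the 10 smallest p in each direction, and the 4 smallest p of each list. Further list members are named beside their list, chosen after their values were seen, as were the meningeal and eosinophil lists. Some genes that the rule named are not reported here. Members and lists were chosen with earlier results of these data known. GENCODE vM21 (mm10) gave positions for 23586 symbols (96.2%), and promoter windows came from RefSeq (GRCm38.p6). Depths are in the report, and shares of genes and windows are given without intervals.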

Additional observations from a re-analysis of the deposited data

Results flagged for a closer look

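Single libraries stood far from the other 3 of the CFA group in 20 of the 241 named genes, which were tested by the gap of the highest or lowest value over the range of the 4. Chance flags about 1 in 20 groups. High values in flox_CFA 1 were Cx3cr1 (9.53 CPM, others 7.29 to 7.33), Tpsb2 (3.15 CPM, others 1.37 to 1.41), Des (4.13 CPM, others 1.39 to 1.75), Tagln (8.01 CPM, others 5.45 to 5.84), Fn1 (86.1 CPM, others 48.96 to 52.7), Pgam2 (3.34 CPM, others 2.33 to 2.42), Myh4 (9.26 CPM, others 0.545 to 0.790), Il1rap (19.1 CPM, others 12.5 to 13.3) and Ern1 (22 CPM, others 17.7 to 18.4). Low values in that library were Stmn2 (1470 CPM, others 1689 to 1726), Bdnf (43.8 CPM, others 51.9 to 53.4), Jph4 (126 CPM, others 148 to 149.8) and Vegfa (58.3 CPM, others 61.1 to 61.4). In flox_CFA 2, high was Il4ra (48.4 CPM, others 45.6 to 46.1), and low were Nucks1 (111 CPM, others 119 to 119.9), P2ry1 (72.5 CPM, others 87.9 to 90.1), Tafa4 (31.4 CPM, others 44.1 to 46.2) and Hoxa9 (47.8 CPM, others 50.8 to 51.4). In flox_CFA 4, high was Ifit3b (15.9 CPM, others 10.6 to 11.1). In flox_CFA 3, Y-linked Uty (0.0277 CPM, others 0 to 0) had its only counts of the group. The muscle genes Myh4, Des and Pgam2 and the smooth muscle gene Tagln were among the high values of flox_CFA 1, which also had the highest summed level of skeletal muscle genes, 129 CPM.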

How the results depend on the processing

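Of 436 calls (291 higher, 145 lower), RLE size factors gave 434, the exclusion of genes at 0 to 3 counts in some and 100 or more in other libraries of a group (chosen after seeing the data) gave 454, and a mean of at least 5 CPM gave 314 (189 higher, 125 lower). DESeq2 gave 1698 (990 higher, 708 lower) and no filter beyond 1 count 145 (94 higher, 51 lower). Leaving out each library gave 42 to 468 calls, 29 to 341 higher and 13 to 133 lower. All 14 libraries in 1 fit gave 1133 (626 higher, 507 lower), genotype labels ignored 3038 (1664 higher, 1374 lower), flox_CFA 2 and 3 alone 40 (23 higher, 17 lower), con/ko as reference 5185 (2756 higher, 2429 lower) and the sex score 1312 (841 higher, 471 lower). The replicate block over libraries 1 to 3 gave 30 (22 higher, 8 lower). Same-numbered libraries did not deviate together, with correlations of 0.009, 0.018 and -0.091, so the numbers do not pair them. The interaction count of 0 became 25 with DESeq2 and 0 to 1 without 1 library. The causes of these shifts were not tested.

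Of 82 named genes that were called, DESeq2, RLE size factors and the fit without genotype labels called all 82, the fit of 14 libraries 77, the sex score 55, no filter 46, flox_CFA 2 and 3 alone 16 and the replicate block 18. Fits without 1 library called 20 to 69. Against con/ko, 7 stayed called in the same direction and 63 changed sign. With the sex score, Mt1 changed sign to -0.28 and Xist to -0.79. The score is the level of Xist less that of Y-linked genes, so the Xist value in that fit tests nothing. Against con/ko, the log2 differences that changed sign, those of genes without a call included, were Ltf -2.74, S100a8 -3.05, S100a9 -2.43, Ngp -2.98, Hbb-bt -2.64, Hbb-bs -2.33, Hba-a2 -2.38, Hba-a1 -2.38, Ptgds -1.07, H19 -1.52, Thbs1 -0.35, Atf3 0.085, Smr2 1.43, Sox11 0.39, Stmn4 0.11, Serpina3i 0.16, Sema6a 0.16, Smim3 0.086, Tmem100 0.10, Nptx2 0.11, Apod -0.42, Cldn11 -0.36, Adcyap1 0.20, Nucks1 0.39, Tifa 0.24, Lix1 0.41, Slc41a2 0.16, Celf4 0.14, Nefm 0.27, Stmn2 0.33, Elavl4 0.22, Isl1 0.28, Tac1 0.33, Calca 0.18, Nefh 0.48, Fabp7 -0.70, Drp2 -0.64, Itgam -1.98, Cx3cr1 -0.067, Csf1r -0.57, Mmp9 -2.35, Mmp8 -2.25, Il7r -2.04, Igkc -2.65, Ms4a1 -3.06, Tpsb2 -0.68, Mcpt4 -0.44, Tagln -1.01, Pi16 -1.36, Dcn -0.59, Fn1 -1.68, Pdgfra -0.37, Alas2 -2.51, Pnpla2 -0.37, Csf1 0.040, C1qc -0.89, Serping1 -0.52, Ptgir 0.47, Etv5 0.34, Spred2 0.41, Bdnf 0.73, S1pr3 0.29, Nr1d1 -0.30, Arntl -0.70, Lcn2 -2.36, Mt1 -0.93, Hsph1 0.26, Dnaja1 0.34, Insig1 0.42, Scd1 0.33, Elovl5 0.33, Top2a -1.37, Mki67 -1.75, Plk1 -0.81, Col12a1 -0.38, Col6a2 -1.04, Col8a2 -1.05, Col8a1 -0.39, Syt4 0.42, Foxd1 -0.15, Slc6a20a -0.97, Zic1 -0.073, Ear1 -2.42, Prg2 -3.20, Epx -3.38 and Ear2 -1.80. Tmem45b was uncalled and kept its sign wherever it was fitted. Low counts limit the calls on Epx, Ear1, Mmp8, Igkc and Tpsb2, and in the table low counts of 4 (4068 values) outnumber those of 3 (2096), so fragments may have been counted more than once.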
